A study of Homo sapiens with 18 samples.

Results

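The genes that make, cut and bind hyaluronan were followed in IMR90 cells, a line of human lung fibroblasts. The 10 genes were taken by symbol from the table of normalized counts, which held 56269 genes: the synthases HAS1, HAS2 and HAS3, the hyaluronidases HYAL1, HYAL2, HYAL3, TMEM2 and CEMIP, and the receptors CD44 and HMMR. All 10 symbols were found. Of these, 8 had a mean normalized count of at least 10 over the 18 libraries and were tested among 13686 genes, while HAS1 and HYAL1 were too low to measure.

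The cells received PBS, cNSF-HA or fNSF-HA (each hyaluronan at 20 μg/ml) over a pre-incubation of 6 h. RNA was taken either directly afterwards or following exposure to tert-butyl hydroperoxide (tBHP, 200 μM, 1 h), an organic peroxide used as an oxidative stressor. cNSF-HA is control very-high-molecular-mass hyaluronan from naked mole-rat skin fibroblasts, mixed with heat-inactivated hyaluronidase, and fNSF-HA is the same hyaluronan partially fragmented with the active enzyme. The cells exposed to tBHP were collected 6 h after its start, so in all 3 pre-incubations the peroxide, the change of medium and the later collection cannot be told apart. Each of the 6 groups had 3 libraries of polyA RNA from this 1 cell line, with 20261103 to 26287660 reads on genes, and the study describes its replicates as biological without saying, for these libraries, whether they were separate cultures. P-values measure the spread between the libraries.

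All 10 fibroblast markers were expressed. None of 6 epithelial and none of 6 immune markers reached a mean of 10, and of 5 endothelial markers PECAM1, CDH5 and KDR stayed under 1 while TEK (mean 1131) and, just above a mean of 10, VWF were detected. After tBHP the libraries spread further apart: the median SD within groups over all genes tested was 0.076 on the log2 scale without tBHP and 0.21 after it. They also differed in a way that followed the GC content of transcripts. In the fNSF-HA replicate 2 library after tBHP, the GC-richest quintile of genes lay at a median of -0.61 from the mean of the 9 tBHP libraries on the log2 scale and the GC-poorest quintile at 0.42, further than in any other library. Results are therefore given beside a fit in which each library's trend with transcript GC content and length was removed. The trend was taken against the mean of all 18 libraries, so a trend shared by the tBHP libraries was removed as well.

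Hyaluronan is a long unbranched polysaccharide of glucuronic acid and N-acetylglucosamine that synthases in the plasma membrane extrude straight into the matrix. Hyaluronidases cut it outside the cell, at the cell surface and in lysosomes, and CD44, the main receptor, binds it and anchors it to the cell. Fibroblasts are a major source of this polymer in connective tissue, and the length of the chain changes how receptors respond to it.

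Levels between genes were compared per kilobase (kb) of exon, on the scale of the normalized count. Over the 9 libraries without tBHP the order was CD44 at 3312 ± 85.9 per kb (mean ± SD, n = 9), HAS2 at 2586 ± 112, TMEM2 at 538 ± 14.1, HMMR at 452 ± 23.8, HYAL2 at 225 ± 11.2, CEMIP at 36.6 ± 3.14, HYAL3 at 25.6 ± 2.09, HAS3 at 3.20 ± 0.875 and HYAL1 at 1.82 ± 0.554. The libraries of neighbours in this order did not overlap except for HAS3 and HYAL1. Over all 18 libraries CD44 ranked 190 and HAS2 ranked 319 among the 12804 tested genes with an annotated transcript.

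Places in the order changed after tBHP. HYAL3, at 38.6 ± 8.20 per kb (n = 9), now lay above CEMIP at 13.1 ± 3.24, with the lowest HYAL3 library (22.5) above the highest CEMIP library (17.2). HMMR fell to 138 ± 27.0 per kb and overlapped HYAL2 at 143 ± 29.7, whereas without tBHP its lowest library had stood at 408 against a highest HYAL2 library of 238. CD44 (3418 ± 222), HAS2 (2046 ± 392) and TMEM2 (590 ± 79.3) stayed the first 3, without overlap between them.

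**Figure D1:**
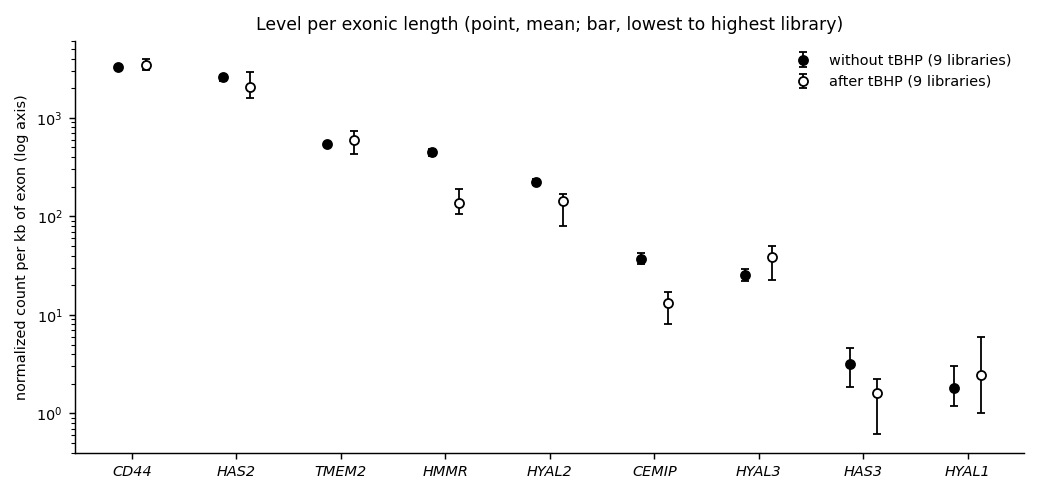
Normalized counts per kb of exon on a log axis for 9 of the 10 genes, without tBHP (filled) and after it (open). Points are means of 9 libraries and bars run from the lowest to the highest library. CEMIP and HYAL3 exchange places and HMMR drops to the level of HYAL2. HAS1, with reads in only 2 libraries, is not drawn.

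For members that moved after tBHP, promoter windows show what precedes each gene. The windows run from 250 bases before to 50 bases after the start of the RefSeq transcript (GRCh38.p14) and are printed in the sense of the gene for CEMIP (chr15:80779120-80779419, plus strand) and HMMR (chr5:163460382-163460681, plus strand), which fell, for HYAL3 (chr3:50299356-50299655, minus strand), which rose, and for CD44 (chr11:35138921-35139220, plus strand), which did not pass the test. Of the 10 members 9 had a window, and HYAL3 had a further one that is not shown. Capitals mark a match to one of the motifs searched, of which the CEMIP window holds none.
CEMIP: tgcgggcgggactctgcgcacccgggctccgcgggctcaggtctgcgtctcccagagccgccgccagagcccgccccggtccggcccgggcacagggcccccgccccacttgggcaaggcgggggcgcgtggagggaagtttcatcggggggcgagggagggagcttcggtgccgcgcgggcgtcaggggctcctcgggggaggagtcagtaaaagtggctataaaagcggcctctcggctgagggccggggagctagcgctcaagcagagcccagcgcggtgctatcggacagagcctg
HMMR: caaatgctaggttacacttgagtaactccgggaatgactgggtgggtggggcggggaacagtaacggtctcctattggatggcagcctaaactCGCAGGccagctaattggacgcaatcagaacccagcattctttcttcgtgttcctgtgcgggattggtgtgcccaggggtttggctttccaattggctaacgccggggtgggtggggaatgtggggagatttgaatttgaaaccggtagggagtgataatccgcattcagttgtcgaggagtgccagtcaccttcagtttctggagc
HYAL3: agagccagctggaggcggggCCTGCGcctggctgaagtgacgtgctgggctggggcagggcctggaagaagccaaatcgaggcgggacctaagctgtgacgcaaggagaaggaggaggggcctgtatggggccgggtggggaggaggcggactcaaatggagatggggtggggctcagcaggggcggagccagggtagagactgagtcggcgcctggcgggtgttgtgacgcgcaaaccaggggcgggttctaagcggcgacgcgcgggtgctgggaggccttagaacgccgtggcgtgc
CD44: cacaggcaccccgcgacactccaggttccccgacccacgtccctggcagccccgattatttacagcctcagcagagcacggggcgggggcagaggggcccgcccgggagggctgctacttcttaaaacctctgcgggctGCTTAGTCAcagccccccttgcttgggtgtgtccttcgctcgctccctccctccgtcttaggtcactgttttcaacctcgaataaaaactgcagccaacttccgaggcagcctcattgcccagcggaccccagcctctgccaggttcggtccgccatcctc
The motifs, read on both strands, were CCTGCG, bound by the intracellular domain of CD44, TGACNNNGC, the core of the antioxidant response element, and TGANTCA, the AP-1 site. CCTGCG was in the windows of HMMR (first base at -157, minus strand), which fell, and HYAL3 (-230), which rose, and also in those of HAS1 and HAS3. Of 35116 RefSeq promoters 23.5% hold it. TGACNNNGC was in the CD44 window (first base at -111, minus strand), as in 13.35% of promoters, and no member's window held TGANTCA, which 7.71% of promoters have. A match is a string of letters and not a measured site.

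The question for the tBHP comparisons was which of these genes change when cells are stressed. HAS3 passed the filter on low values only through the libraries without tBHP, which favours a fall, so its change is given as a description and it is left out of the counts here. Over the 3 pre-incubations together, HAS2, HYAL2, CEMIP and HMMR fell, HYAL3 rose, and TMEM2 and CD44 did not pass the threshold (limma, adjusted p under 0.05). That is 5 of 7 members called, 4 lower and 1 higher, where 67.8% of all genes tested were called, 35.2% lower and 32.6% higher, so the share called was near that of genes at large. With the GC and length trend removed, where 37.1% of genes fell and 35.9% rose, 3 of the 7 fell (HYAL2, CEMIP and HMMR), 3 rose (HYAL3, TMEM2 and CD44) and HAS2 did not pass. HYAL2, CEMIP and HMMR were lower in all 9 tBHP libraries than in any library without tBHP, as were 15.3% of genes, and these 3 fell past the threshold in each pre-incubation, as did 17.9% of genes.

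**Figure D2:**
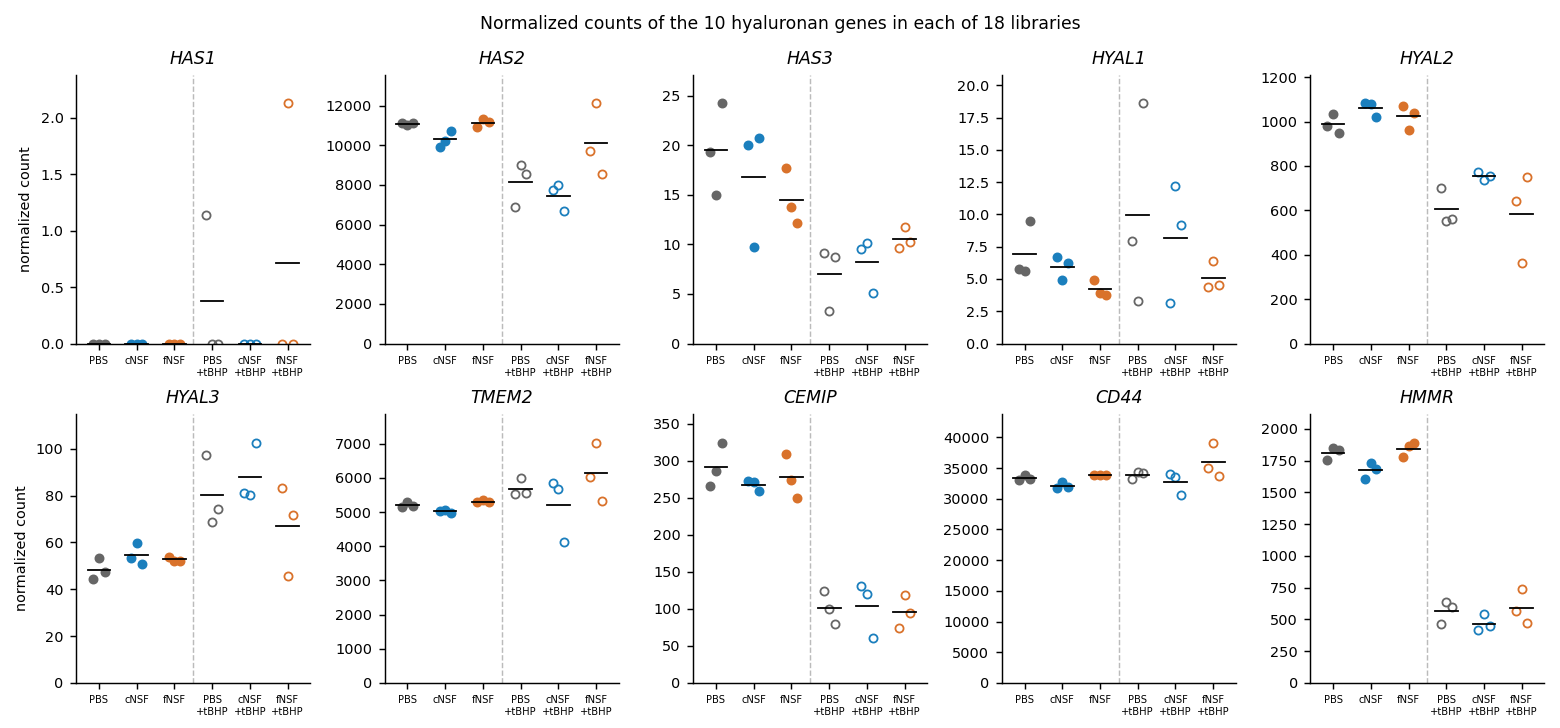
Normalized counts of the 10 genes in each library, by group, without tBHP (filled, left of the dashed line) and after it (open), with a line at each group mean. CEMIP, HMMR and HYAL2 separate fully at the dashed line, CD44 and TMEM2 do not, and among the 9 tBHP libraries 1 with fNSF-HA is the highest for HAS2, TMEM2, CD44 and HMMR and the lowest for HYAL2 and HYAL3.

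HAS2 encodes the main synthase of fibroblasts, which makes long chains. Its normalized counts without tBHP were 11114, 11004 and 11110.2 with PBS, 9911, 10234 and 10730.5 with cNSF-HA and 10931, 11301 and 11172 with fNSF-HA. After tBHP they were 6889.6, 9005 and 8532 with PBS, 7720.1, 7981 and 6667 with cNSF-HA, and 9719, 12113 and 8541 with fNSF-HA. All tBHP libraries except fNSF-HA replicate 2 lay below every library without tBHP. The change was -0.45 (SE 0.11) with PBS (limma, adjusted p = 0.00198), -0.47 (SE 0.11) with cNSF-HA (adjusted p = 0.00158) and -0.15 (SE 0.11) with fNSF-HA (adjusted p = 0.278).

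The fall of HAS2 was close to the median of transcripts as poor in GC. The HAS2 transcript holds 36.9% GC, in the lowest quintile of genes, and the median change of that quintile over the 3 pre-incubations was -0.38, against -0.36 (SE 0.062) for HAS2 (adjusted p = 5.87e-05). With the GC and length trend removed over all 18 libraries the value turned to 0.06 (adjusted p = 0.0637). With the trend removed separately within libraries with and without tBHP, which leaves in a trend shared by the tBHP libraries, it was -0.36 (adjusted p = 3.75e-11). That fit, chosen after seeing the data, gave -0.36 with PBS, -0.43 with cNSF-HA and -0.28 with fNSF-HA, each past the threshold. Without the fNSF-HA replicate 2 library after tBHP, the change with fNSF-HA was -0.29 (adjusted p = 0.0132), past the threshold. A transcript on the other strand, HAS2-AS1, shares 201 exonic bases with HAS2. HAS2-AS1 was counted at a mean of 24.1 without and 17.0 after tBHP, small beside HAS2. The libraries do not mark strand, so reads in shared bases cannot be told apart, as also for AC027808.1, CD44-AS1 and HMMR-AS1 over 71, 84 and 113 bases of CEMIP, CD44 and HMMR.

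HAS3 makes shorter chains and was close to the limit of detection, with 10 to 28 reads per library without tBHP and 3 to 11 after it. Its mean normalized count was 16.9 ± 4.63 without and 8.60 ± 2.69 after tBHP (SD, n = 9 each), with overlapping libraries. HAS3 shares 365 exonic bases with CHTF8 on the other strand, a gene that rose by 0.35 (SE 0.034, limma, adjusted p = 3.50e-08), and by 0.18 with the trend removed. The fitted log2 change was -1.43 (SE 0.38) with PBS, -0.93 (SE 0.38) with cNSF-HA and -0.42 (SE 0.38) with fNSF-HA. With the GC and length trend removed it was -1.04 over the 3 pre-incubations.

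HAS1, the third synthase, had 3 reads in all, all from cells exposed to tBHP: 1 in PBS replicate 1 and 2 in fNSF-HA replicate 2. The other 16 libraries had 0 reads, which allows up to 0.114 to 0.148 CPM (3 reads in a library, counting error only).

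The classical hyaluronidase genes HYAL3, HYAL1 and HYAL2 lie in that order within a short stretch of chromosome 3 on the minus strand (GENCODE 29, GRCh38), at chr3:50292831-50299468, chr3:50299889-50312381 and chr3:50317790-50322906. HYAL2, anchored at the cell surface, where it cuts long chains into shorter ones, had normalized counts without tBHP of 979, 1035 and 950.3 with PBS, 1082, 1081 and 1021 with cNSF-HA, and 1071, 959.8 and 1039 with fNSF-HA. After tBHP they were 702, 553 and 561 with PBS, 775, 738 and 755 with cNSF-HA, and 641, 365 and 752 with fNSF-HA. The 2 sets of 9 libraries were apart. The log2 change was -0.71 (SE 0.17) with PBS (limma, adjusted p = 0.00212), -0.49 (SE 0.17) with cNSF-HA (adjusted p = 0.0239) and -0.87 (SE 0.17) with fNSF-HA (adjusted p = 0.000535).

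HYAL2 went against the trend of its GC content. Its transcript holds 62.8% GC, and the GC-richest quintile of genes changed by a median of 0.19 over the 3 pre-incubations, while HYAL2 changed by -0.69 (SE 0.099, adjusted p = 6.67e-06). Removing the trend made the change larger, -0.90 (adjusted p = 1.09e-15). HYAL2 shares 509 exonic bases, 11.2% of its exonic length, with TUSC2 on the same strand. TUSC2 moved the other way, by 0.31 (SE 0.065, adjusted p = 0.000355), and by 0.08 (adjusted p = 0.110) with the trend removed. The call with cNSF-HA did not hold without cNSF-HA replicate 1 (adjusted p = 0.0605), without cNSF-HA replicate 2 (0.0618), or without replicate 2 (0.0593) or 3 (0.0556) of cNSF-HA after tBHP.

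HYAL3, a member of the same family whose own enzyme activity is poorly defined, was the one member that rose before the trend was removed. Its normalized counts without tBHP were 44.4, 53.2 and 47.6 with PBS, 53.4, 59.6 and 50.7 with cNSF-HA, and 53.9, 52.2 and 52.2 with fNSF-HA. After tBHP they were 97.6, 68.6 and 74.4 with PBS, 81.2, 80.2 and 102.7 with cNSF-HA, and 83.3, 45.7 and 71.8 with fNSF-HA. All tBHP libraries but fNSF-HA replicate 2 lay above every library without tBHP. The change was 0.70 (SE 0.19) with PBS (limma, adjusted p = 0.00558), 0.67 (SE 0.19) with cNSF-HA (adjusted p = 0.00761) and 0.29 (SE 0.19) with fNSF-HA (adjusted p = 0.240), the last reaching 0.54 (adjusted p = 0.0155) without fNSF-HA replicate 2.

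Over the 3 pre-incubations HYAL3 rose by 0.56 (SE 0.11, adjusted p = 0.000248), and by 0.30 (adjusted p = 0.00366) once the GC and length trend was removed. In that fit the call with cNSF-HA was lost (0.29, adjusted p = 0.102). HYAL3 holds 60.9% GC and shares 248 exonic bases with NAA80, listed in the table as NAT6, and 43 with IFRD2, both on its own strand. NAT6 changed by 0.21 (SE 0.11, adjusted p = 0.0953) and IFRD2 by -0.34 (SE 0.082, adjusted p = 0.00135), which was -0.58 with the trend removed.

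HYAL1, the lysosomal hyaluronidase, had 3 to 17 reads per library and 120 in all. Its mean normalized count was 5.69 ± 1.73 without tBHP and 7.74 ± 5.05 after it (SD, n = 9 each), with wide overlap, and it was not tested.

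CEMIP, a protein needed for uptake and breakdown of hyaluronan in skin fibroblasts (plus strand, chr15:80779343-80951776), had the largest fall among the hyaluronidases. Its normalized counts without tBHP were 266, 286 and 324 with PBS, 273, 272 and 258 with cNSF-HA, and 309, 274 and 249.7 with fNSF-HA. After tBHP they were 124, 100.2 and 79.9 with PBS, 130.7, 119.7 and 61.0 with cNSF-HA, and 73.7, 118 and 94.5 with fNSF-HA. Every library without tBHP lay well above every library after it. The log2 change was -1.54 (SE 0.23) with PBS (limma, adjusted p = 2.49e-05), -1.43 (SE 0.23) with cNSF-HA (adjusted p = 5.49e-05) and -1.55 (SE 0.23) with fNSF-HA (adjusted p = 2.92e-05). Over the 3, its change of -1.51 (SE 0.13) was below that of all but 0.811% of genes, and it was -1.60 with the trend removed. CEMIP shares 224 exonic bases with MESD, listed in the table as MESDC2, on the other strand, which changed by -0.10 (SE 0.034, adjusted p = 0.0202).

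TMEM2, a cell-surface protein related to CEMIP and annotated as CEMIP2 in GENCODE 29 (minus strand, chr9:71683366-71816690), did not pass the threshold. Without tBHP its normalized counts ran from 4961 to 5343 (median 5167) over 9 libraries and after tBHP from 4121 to 7032 (median 5679.6). Of the tBHP libraries cNSF-HA replicate 3 (4121) lay below the first range, fNSF-HA replicate 3 (5337) within it and all others above it. The change over the 3 pre-incubations was 0.12 (SE 0.061, 95% interval -0.01 to 0.25, limma, adjusted p = 0.0882). It was 0.19 (adjusted p = 7.16e-06) with the GC and length trend removed, 0.19 (adjusted p = 0.00821) by edgeR, 0.17 (adjusted p = 0.0019) without cNSF-HA replicate 3 after tBHP and 0.15 (adjusted p = 0.0239) without fNSF-HA replicate 3 after tBHP, each past the threshold. In this comparison edgeR placed the values of all genes a median of 0.068 above the main fit.

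CD44 (plus strand, chr11:35138870-35232402), the receptor through which pericellular hyaluronan is held, was the most abundant member. Before the GC and length trend was removed it had the smallest change of the 8. Without tBHP its normalized counts ran from 31777 to 33915 (median 33259.6) and after tBHP from 30628 to 39148 (median 33969). Libraries with and without tBHP overlapped. Its change over the 3 pre-incubations was 0.04 (SE 0.034, 95% interval -0.03 to 0.11, limma, adjusted p = 0.268), and 92.4% of genes changed by more. The CD44 change differed between settings: it was 0.12 with the trend removed (adjusted p = 7.59e-06) and 0.11 by edgeR (adjusted p = 0.00809), but -0.20 under quantile normalization (adjusted p = 0.000153). By edgeR the values of all genes lay a median of 0.068 above the main fit.

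HMMR, also called RHAMM, a hyaluronan receptor that inside the cell binds the mitotic spindle (plus strand, chr5:163460203-163491945), fell further than any other member before the GC and length trend was removed. Its normalized counts without tBHP were 1755, 1847 and 1837 with PBS, 1604, 1730.05 and 1687 with cNSF-HA, and 1777, 1867 and 1891 with fNSF-HA. After tBHP they were 459.6, 636 and 599.6 with PBS, 414, 541 and 446 with cNSF-HA, and 566, 741 and 468 with fNSF-HA. No library overlapped. The log2 change was -1.69 (SE 0.14) with PBS (limma, adjusted p = 2.36e-08), -1.85 (SE 0.14) with cNSF-HA (adjusted p = 9.36e-09) and -1.66 (SE 0.14) with fNSF-HA (adjusted p = 3.57e-08).

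HMMR is as poor in GC (36.7%) as HAS2, but its change over the 3 pre-incubations, -1.74 (SE 0.080, adjusted p = 2.06e-12), was far below the median of -0.38 for its quintile and was -1.33 with the trend removed, a smaller fall than the -1.60 of CEMIP in that fit. Transcripts of G2 and mitosis fell with it. Of 15 G2/M markers 14 fell and 0 rose, where 35.2% of all genes fell. The same counts held with the trend removed, where 37.1% of genes fell. In the main fit they were led by CENPE (-1.65, SE 0.096, adjusted p = 5.53e-11), a kinetochore motor, CCNB1 (-1.05, SE 0.036, adjusted p = 2.81e-14), the mitotic cyclin B1, and CDC20 (-1.04, SE 0.050, adjusted p = 2.99e-12), an activator of the anaphase-promoting complex. With the trend removed CDC20 fell furthest (-1.285), with CENPE at -1.14 and CCNB1 at -0.94. The summed normalized count of the 15 markers was 79392 to 82594 without tBHP and 45485 to 56919 after it. Fewer cells in G2/M and less HMMR RNA per cell cannot be told apart in bulk RNA, and the part of the cell cycle in the fall of HMMR was not tested.

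**Figure D3:**
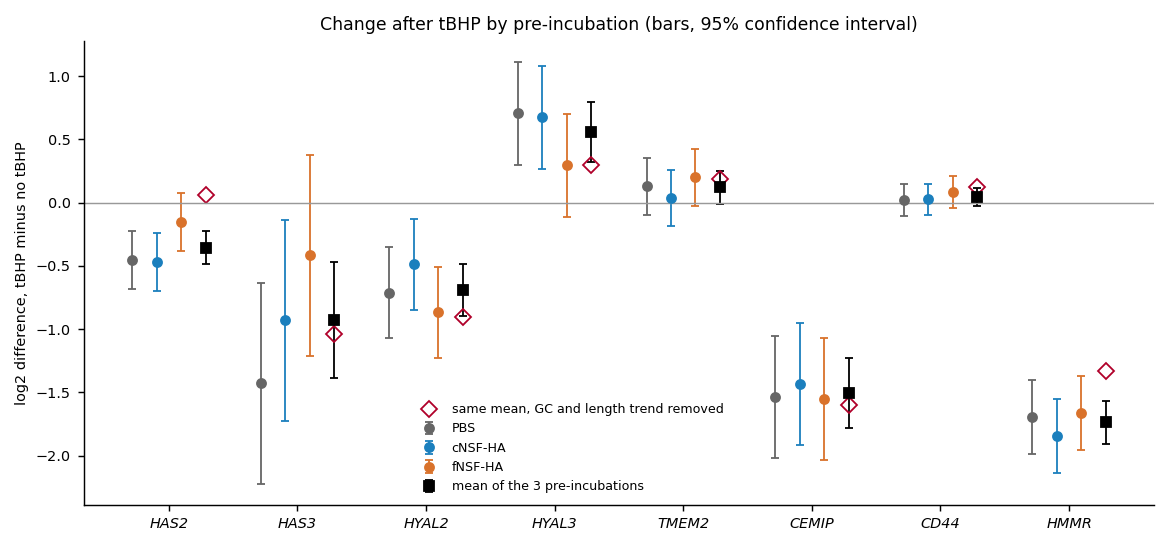
Log2 change after tBHP of the 8 members tested, for each pre-incubation (circles) and their mean (squares), with 95% confidence intervals, and the mean with the GC and length trend removed (diamonds). HMMR and CEMIP lie below -1 in every pre-incubation. The HAS2 diamond is at 0.06, above the interval of its square, and the HMMR diamond is at -1.33.

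The other genes of hyaluronan metabolism moved in both directions over the 3 pre-incubations, and their counts are read against the 32.6% of genes that rose and 35.2% that fell. Of 7 genes for the nucleotide sugar precursors, 3 rose and 4 fell. UGDH, the enzyme that makes UDP-glucuronic acid, rose by 1.23 (SE 0.051, limma, adjusted p = 4.28e-13), from a mean normalized count of 2903 to 6606 with PBS. GFPT2, which opens the hexosamine pathway, rose by 0.92 (SE 0.039, adjusted p = 7.07e-13). UAP1, which makes UDP-N-acetylglucosamine, changed by -0.61 (SE 0.041, adjusted p = 3.54e-10). With the GC and length trend removed, where 35.9% of genes rose and 37.1% fell, 4 of the 7 rose and 2 fell, and UGDH was at 1.48.

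Among other degradation genes, the hyaluronidases HYAL4 and SPAM1 were not measurable, and the lysosomal exoglycosidases HEXA (0.32, SE 0.044, adjusted p = 3.77e-06) and GUSB (0.30, SE 0.056, adjusted p = 0.000144) rose, with GUSB at 0.13 once the trend was removed. Of 4 other receptors only LAYN, layilin, reached a mean of 10, and it changed by -0.62 (SE 0.050, adjusted p = 4.25e-09), while LYVE1, STAB1 and STAB2 had means under 1. The 9 genes of the proteases and gamma-secretase that cleave CD44 had 5 that rose, 2 that fell and 2 that did not pass, with the largest changes in PSEN2 (-0.92, SE 0.075, adjusted p = 4.75e-09), MMP14 (0.66, SE 0.048, adjusted p = 9.93e-10) and ADAM17 (0.53, SE 0.051, adjusted p = 4.44e-08). With the trend removed ADAM17 was at 0.91 and MMP14 at 0.47, and 4 of the 9 rose and 2 fell.

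Of 5 genes that link CD44 to the cytoskeleton or restrain it, 4 fell and 1 rose. ANK3, at a mean of only 12.8, changed by -0.57 (SE 0.18, adjusted p = 0.00878), which was -0.29 and no longer past the threshold with the GC trend removed (adjusted p = 0.154). EZR, ezrin, changed by -0.43 (SE 0.033, adjusted p = 2.31e-09) and NF2, merlin, by -0.40 (SE 0.042, adjusted p = 1.72e-07). In that list the trend-removed fit had 2 up and 2 down. Fibroblast markers, for comparison, had 5 that fell, 1 that rose and 4 that did not pass, and 4 that fell and 4 that rose with the trend removed. Their summed count was 594921 to 616446 without tBHP and 458889 to 722451 after it. Of the 2 endothelial markers measured TEK changed by -0.54, and VWF was at 1.07. VWF passed the filter on low values only through the tBHP libraries (group means 6.81 to 9.57 without tBHP, 16.1 to 18.5 after it). That favours a rise, so its value is a description. The part of these markers in the members' changes was not tested.

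The hyaluronan comparisons asked whether the polymer or its length changed expression of the genes that handle it. Without tBHP none of the 8 members passed the threshold for cNSF-HA against PBS, fNSF-HA against PBS or cNSF-HA against fNSF-HA (limma, adjusted p at least 0.9999, 0% of all genes called in each). An unadjusted p under 0.05 was reached by 0 members in each, and by 0.921%, 0.796% and 1.51% of all genes in that order. edgeR and DESeq2 also called 0 members in each, and of all genes only DESeq2 called any, 0.0219% for fNSF-HA against PBS.

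The libraries without tBHP were close enough for small differences to show. HAS2, TMEM2, CD44 and HMMR were lower in all 3 cNSF-HA libraries than in any PBS library, and also than in any fNSF-HA library. That is 4 of 8 members in each comparison, which share the cNSF-HA libraries, where 8.33% of genes lay lower without overlap against PBS and 17.1% against fNSF-HA. The differences were small. For cNSF-HA minus fNSF-HA they were -0.11 for HAS2 (95% interval -0.34 to 0.11), -0.08 for TMEM2 (-0.30 to 0.14), -0.08 for CD44 (-0.20 to 0.05) and -0.14 for HMMR (-0.43 to 0.15).

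When only these 2 groups entered the fit, whose spread is then that of libraries without tBHP, HAS2 (limma, adjusted p = 0.00881), CD44 (adjusted p = 0.0285) and HMMR (adjusted p = 0.0207) passed the threshold, as did 7.16% of genes. With the GC and length trend removed as well, 0 members and 0.531% of genes did, with HAS2 at -0.003, CD44 at -0.04 and HMMR at -0.03. The 3 cNSF-HA libraries were also the lowest of the 9 in GC-poor genes at large. Their GC-poorest quintile lay at medians of -0.10 to -0.03 from the mean of the 9 libraries without tBHP, against 0.03 to 0.07 with fNSF-HA and -0.03 to 0.04 with PBS.

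After tBHP, again none of the 8 members passed in any of the 3 comparisons (limma, with 0% of all genes called for cNSF-HA against PBS, 0.139% for fNSF-HA against PBS and 0% for cNSF-HA against fNSF-HA). At an unadjusted p under 0.05 there were 0 members for cNSF-HA against PBS (8.64% of all genes), 1 for fNSF-HA against PBS (HAS2, 0.31, SE 0.11, adjusted p = 0.142, with 22.7% of all genes) and 6 for cNSF-HA against fNSF-HA, where 32.2% of all genes were under it too. HAS2 had the smallest p in the last, with a difference of -0.43 (SE 0.11, adjusted p = 0.0981), with every cNSF-HA library (6667 to 7981) below every fNSF-HA library (8541 to 12113), which 8.29% of genes also showed. By DESeq2 it passed (-0.44, adjusted p = 0.0254), as did 9.98% of the 9706 genes with an adjusted p. The limma SEs come from a spread shared with the libraries without tBHP, where the SD of HAS2 was smaller (0.036 against 0.20 after tBHP).

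The 6 members under an unadjusted p of 0.05 were lower where their transcripts are GC-poor to medium and higher where they are GC-rich. Against fNSF-HA, cNSF-HA was lower for the GC-poor HAS2 and HMMR (-0.32, SE 0.14, adjusted p = 0.125), and for TMEM2 (-0.24, SE 0.11, adjusted p = 0.131) and CD44 (-0.14, SE 0.059, adjusted p = 0.127). It was higher for the GC-rich HYAL2 (0.43, SE 0.17, adjusted p = 0.109) and HYAL3 (0.42, SE 0.19, adjusted p = 0.143). The medians over all genes went from -0.27 in the GC-poorest quintile to 0.34 in the GC-richest. With the trend removed the values were -0.15 for HAS2, -0.06 for HMMR, -0.10 for TMEM2, 0.002 for CD44, 0.05 for HYAL2 and 0.06 for HYAL3. Of the other members, HAS3 (52.7% GC) was at -0.37 and at -0.41 with the trend removed, against a median of 0.11 in its quintile, and CEMIP (53.1% GC) was at 0.07 and 0.06.

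**Figure D4:**
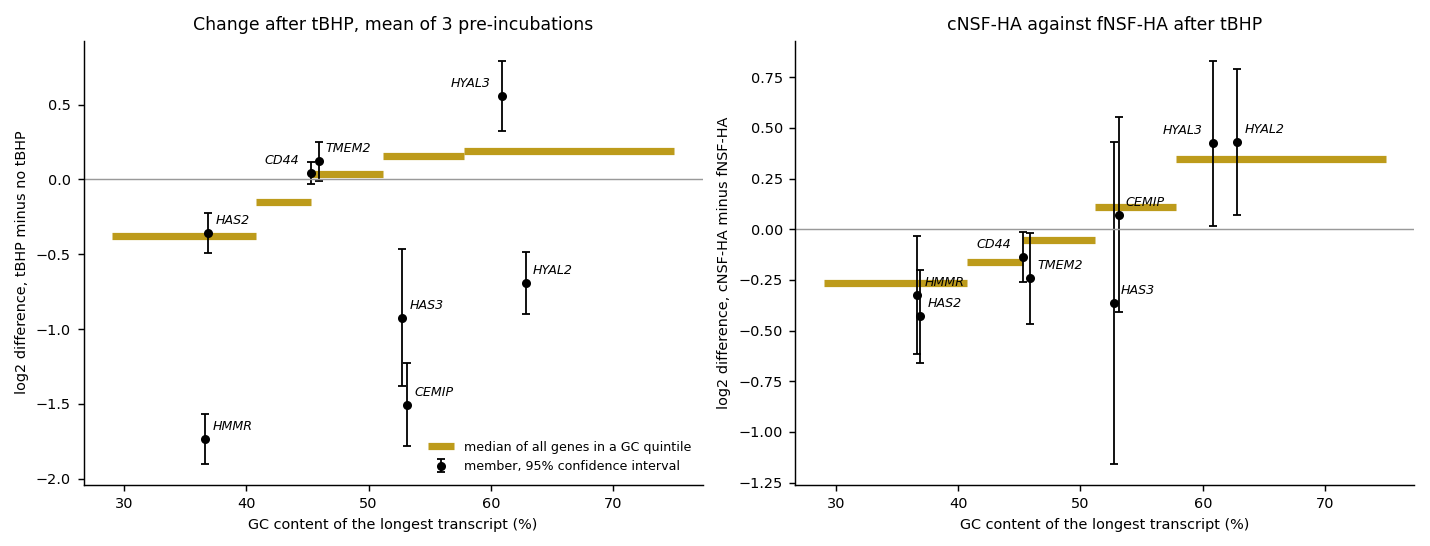
Log2 differences of the 8 members against the GC content of their longest transcript, with 95% confidence intervals, and the median of all genes tested in each GC quintile (bars across the quintile). On the left, the change after tBHP, HAS2 lies on the bar of its quintile and HMMR, HAS3, CEMIP and HYAL2 lie below theirs. On the right, cNSF-HA against fNSF-HA after tBHP, the GC-poor HAS2 and HMMR lie below 0 and the GC-rich HYAL2 and HYAL3 above it, as the bars do.

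In the fNSF-HA group 1 library carried much of the spread. Replicate 2 had the highest HAS2, TMEM2, CD44 and HMMR and the lowest HYAL2 and HYAL3 of the 9 tBHP libraries. Leaving out replicate 3 of that group instead, so that replicate 2 weighed more, brought 5 members past the threshold for cNSF-HA against fNSF-HA: HAS2 (-0.55, adjusted p = 0.00149), HYAL2 (0.64, adjusted p = 0.00434), TMEM2 (-0.34, adjusted p = 0.0182), CD44 (-0.18, adjusted p = 0.0294) and HMMR (-0.48, adjusted p = 0.00827), as did 40.8% of all genes. HAS2 then also passed for fNSF-HA against PBS (0.42, adjusted p = 0.0077), with 29.4% of all genes. Without replicate 2, 0 members passed in either. Among the list genes only LUM, the fibroblast proteoglycan lumican, passed between pre-incubations with all libraries, higher by 0.60 with fNSF-HA than with PBS after tBHP (adjusted p = 0.0261), and at 0.33 (adjusted p = 0.135) with the trend removed.

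**Figure D5:**
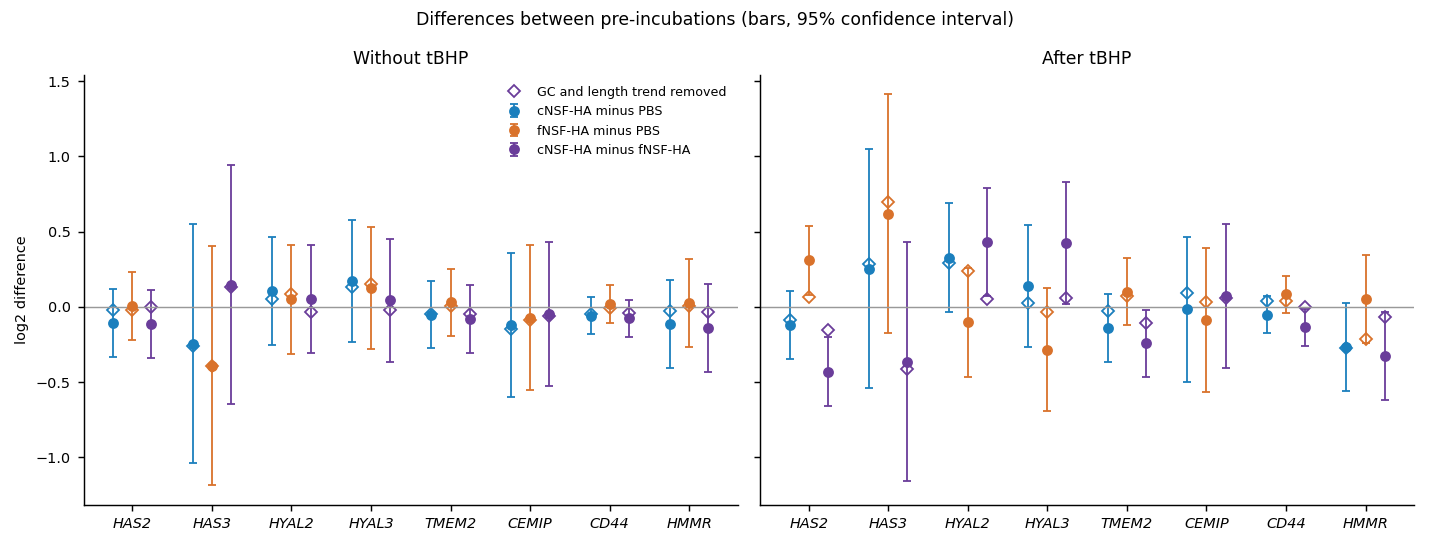
Log2 differences between pre-incubations for the 8 members, without tBHP (left) and after it (right), with 95% confidence intervals (filled circles), and the same with the GC and length trend removed (open diamonds). None of the filled circles passed the threshold over all genes. After tBHP the diamonds for HAS2, TMEM2, HYAL2, HYAL3, CD44 and HMMR in cNSF-HA minus fNSF-HA lie nearer 0 than the circles.

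The response to tBHP itself was compared between pre-incubations as an interaction. None of the 8 members differed past the threshold for cNSF-HA minus PBS, fNSF-HA minus PBS or cNSF-HA minus fNSF-HA (limma, smallest adjusted p = 0.667, with 0% of all genes called in each), and 0 had an unadjusted p under 0.05, which 4.06%, 6.88% and 3.89% of all genes had. The difference for HAS3, on few reads, reached 1.01 in fNSF-HA minus PBS (95% interval -0.11 to 2.13). For HAS2 the difference in cNSF-HA minus fNSF-HA was -0.32 (-0.64 to 0.00), and for HYAL3 in fNSF-HA minus PBS it was -0.41 (-0.99 to 0.17). For HMMR the 3 differences had intervals within -0.60 to 0.44 and for CEMIP within -0.70 to 0.80. That fewer members other than HAS3 passed with fNSF-HA (3 of 7, 41.9% of all genes) than with PBS (5 of 7, 51.1%) or cNSF-HA (5 of 7, 50.8%) was thus not shown to be a difference in response.

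Likeness over the 18 libraries was taken as Pearson's r of log2 values against genes with a mean of at least 100 and is a description, in which the tBHP exposure and the GC trend are shared by all points. The genes most like HMMR were LBR, DDAH1 and C4orf46 (r = 0.996, 0.996 and 0.995), and those most like CEMIP were CLCN4, KIAA1549L and THBS1 (0.981, 0.978 and 0.976). For HAS2 they were SCYL2, SUCO and SMARCAD1 (0.985, 0.985 and 0.983), for HYAL2 GRWD1, ARSI and RANGAP1 (0.989, 0.982 and 0.981) and for HYAL3 TBC1D10A, ETV4 and DVL2 (0.961, 0.961 and 0.958). For TMEM2 they were SLMAP, CNOT1 and UBXN7 (0.982, 0.980 and 0.972), for CD44 FEM1B, DCTN4 and PJA2 (0.950, 0.945 and 0.935) and for HAS3 PLD1, TM7SF3 and FBXL17 (0.878, 0.836 and 0.834). Within the 9 libraries without tBHP, where the exposure is not shared, the r with CEMIP was 0.653 for CLCN4, 0.0069 for KIAA1549L and 0.265 for THBS1 (0.834, 0.848 and 0.792 within the 9 tBHP libraries), and the r with HMMR was 0.819 for LBR, 0.810 for DDAH1 and 0.811 for C4orf46 (0.930, 0.939 and 0.900 within the 9 tBHP libraries).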

How the data were processed

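Sequencing of polyA RNA (TruSeq V2, which does not mark strand, single-end 100 nt reads) was done for 18 libraries. Per the labels, the authors trimmed reads with Trimmomatic 0.32, aligned them to GRCh38.p7 with STAR 2.5.2b, counted them per gene with featureCounts (Subread 1.5.0-p3) and divided the counts by DESeq2 size factors, and the deposited signal values are these normalized counts. The deposited table also holds the authors' p-values, q-values and their ranking for an unnamed comparison, which were not used.

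Dividing each library's values by the value of 1 read returned whole reads for 100.0% of values (tolerance 0.01), 20261103 to 26287660 per library. Genes with a mean normalized count of at least 10 (13686) were tested with limma 3.58.1 (R 4.3.3) on log2(value + 1), a scale that understates changes of low genes, with 1 coefficient for each of the 6 groups, a mean-variance trend and Benjamini-Hochberg adjustment over all genes tested in each of 13 comparisons. The threshold was an adjusted p of 0.05, and every adjusted p comes from this fit unless a tool is named. Transcript GC content and length (GENCODE 29) were available for 12804 genes (93.6%), and their trend was removed per library with natural splines (5 degrees of freedom) as an alternative, beside edgeR 4.0.16 and DESeq2 1.42.0 on the recovered reads, other pseudocounts, filters and scalings, a replicate block, and each of the 18 libraries left out. Another 2 alternatives that combine the GC and length trend with other settings were chosen after seeing the data. The procedure was tested on simulated data. Figures were drawn with matplotlib 3.10.9.

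The 10 genes, the gene lists and the tests were chosen with earlier results of these data known. The genes named were all 10 members, up to 3 genes of each list with the largest change past the threshold over the 3 pre-incubations, the 3 genes most like each member, genes that overlap a member and list genes past the threshold between pre-incubations, and list genes that were too low are named as such. A gene of the lists is not reported here. Replicate pairs differed by 1.45 to 64.8 times the counting noise (chi-square per degree of freedom, 18 pairs), so none was counted as a duplicate.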

Additional observations from a re-analysis of the deposited data

How the results depend on the processing

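Reads were fewest for HAS3, HYAL1 and HAS1, and the share of counting error in the spread of the members was not tested. Under 32 alternatives the members' values gave 3296 comparisons with the main setting, of which 1844 kept their side of the threshold with 1 library left out and 1368 under other settings, 125 of them with a change of sign in a value called under neither. The direction turned for 2 genes in values called under either setting. With the GC and length trend removed, also in the replicate block or in a fit of the compared groups only, HAS2 changed after tBHP by 0.05133 with PBS and 0.1335 with fNSF-HA, and with all groups by 0.0562 over the 3 pre-incubations. Under quantile normalization CD44 changed by -0.2044 with PBS, -0.2824 with cNSF-HA and -0.1991 over the 3. The cause was not tested.

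After tBHP with fNSF-HA, HYAL2, CEMIP and HMMR were the 3 members called (41.9% of all genes) and fell under each setting given here. The count became 6 with the trend removed (56% of all genes), also in the replicate block (56.6%) or the compared groups only (54.9%), by a rise of HAS2, TMEM2 and CD44. It became 6 with the trend removed within libraries with and without tBHP (61.8%) by a fall of HAS2 and a rise of HYAL3 and TMEM2. It became 5 by edgeR (43.2%) by a rise of TMEM2 and CD44, where the values of all genes lay a median of 0.068 above the main fit. With 1 library left out it lay between 3 and 5, with 5 (50.6%) without fNSF-HA replicate 2 after tBHP by a fall of HAS2 and a rise of HYAL3. For cNSF-HA against fNSF-HA the count of 0 became 3 without tBHP when only those groups were fitted. After tBHP it became 1 by DESeq2 and lay between 0 and 5 with 1 library left out. For fNSF-HA against PBS after tBHP it lay between 0 and 1, the upper values both without fNSF-HA replicate 3. Whether the replicate numbers pair the libraries stayed unclear. Of 45 pairs of the same number in different groups 7 had a correlation of deviations over 0.1 (-0.12 to 0.33). In 24 of the 45 the library of the same number correlated best. Under the replicate block alone 3 members were called after tBHP with fNSF-HA (43.4% of all genes), and no member's call changed in any comparison.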
